A study of Mus musculus with 8 samples.

Results

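The urea cycle and the breakdown of amino acids were followed in the liver through 43 genes, chosen by their symbols in the deposited count table. The table holds 16540 gene symbols, of which 12307 passed a filter on low counts and were tested, and all 43 members were among them. The members were grouped into 7 branches, namely the urea cycle (7 genes), aromatic amino acids (4), tryptophan (5), branched-chain amino acids (9), glycine (4), sulfur amino acids (8) and a group of enzymes for lysine, proline and transamination (6).

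All 8 mice were male *Apoe*-/- animals, a strain that lacks apolipoprotein E and is prone to high plasma cholesterol, and all were kept on a Western diet. The paper describes a high cholesterol diet that began weeks before the injections. Vehicle was given to 4 mice, and 4 mice received isoginkgetin (ISOGK), a plant biflavone that the study describes as an inhibitor of ATP-citrate lyase, at 20 mg/kg/day by intraperitoneal injection for 8 weeks. The age of the mice was not given in the sources used here, and the columns of the vehicle mice are named for the solvent DMSO. One library of liver mRNA was sequenced per mouse, and no source says whether the mice were littermates or shared cages. *Apoe* had between 3252 and 4963 counts per library in the vehicle mice and between 3598 and 6489 in the ISOGK mice. No mouse with intact *Apoe* was sequenced for comparison, so its loss is taken here from the sample labels.

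The liver removes nitrogen by converting ammonia to urea. Carbamoyl phosphate synthetase and ornithine transcarbamylase act in mitochondria, and argininosuccinate synthase, argininosuccinate lyase and arginase complete the cycle in the cytosol. Hepatocytes also break down most amino acids, except that the first step for the branched-chain amino acids takes place largely in muscle, and they convert methionine to S-adenosylmethionine, the methyl donor of the cell, and on to homocysteine, cysteine and taurine. Many of these enzymes are hepatocyte markers whose mRNA responds to feeding, glucagon and glucocorticoids.

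Between 19605286 and 24461854 reads were counted per vehicle mouse, and between 17457106 and 21626399 per ISOGK mouse. The lowest count of any member in any library was 167, so that spread between mice rather than depth set the precision. The 8 hepatocyte markers examined, albumin among them, were each counted in every library, and none passed the test between the groups. The 10 skeletal muscle markers summed to 67.9 CPM, the count scaled to the size of the library, in vehicle mouse 4 and to at most 0.524 CPM in any other mouse. Macrophage markers summed to between 1212 and 1533 CPM in the vehicle mice and between 986.4 and 1246 CPM in the ISOGK mice, and 1 of 7, *Cd68*, was lower by the test. Cholangiocyte markers summed to between 27.5 and 34.8 CPM in the vehicle mice and between 28.2 and 69.1 CPM in the ISOGK mice, and 1 of 5, *Sox9*, was higher. The part of these cell types in the results below was not tested. In whole liver, fewer cells of a type and less RNA per cell cannot be told apart.

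Scaled to exon length, the levels of the members ranged from 2.96 to 1718 CPM per kb in the vehicle mice. *Mat1a*, which makes S-adenosylmethionine, had the highest level and was the 8th most abundant gene of the liver by counts averaged over all 8 mice. It was followed by *Ass1* at 1146, *Hpd* at 1058, *Ahcy* at 1011, *Cdo1* at 972 and *Cps1* at 964 CPM per kb. At the low end were *Mccc1* at 4.05 and *Bcat2* at 2.96 CPM per kb, and *Bcat2* is the mitochondrial transaminase of the branched-chain amino acids. The length used is that of all annotated exons of a gene merged, 10.95 kb for *Mccc1* and 2.80 kb for its partner *Mccc2*. Before this scaling *Mccc1* had a vehicle mean of 44.4 CPM and *Mccc2* 54.7 CPM, so the low place of *Mccc1* depends on that length. Among the 500 most abundant genes of the liver by counts averaged over all 8 mice, 25 were members.

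**Figure D1:**
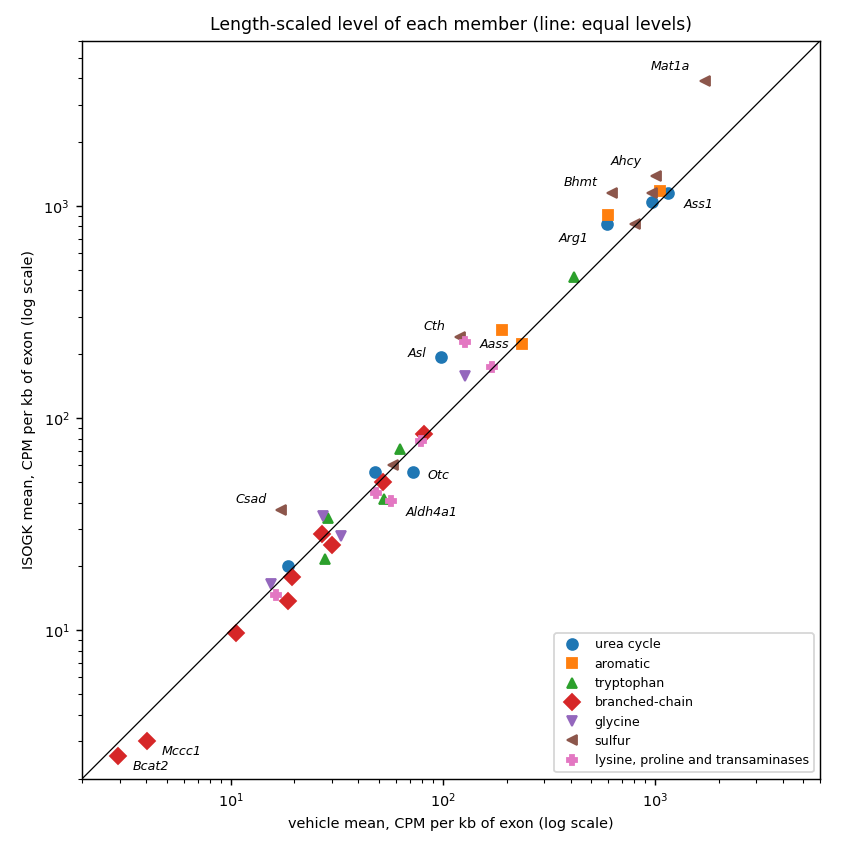
Mean level of each member in the 4 vehicle mice (horizontal axis) and the 4 ISOGK mice (vertical axis), in CPM per kb of merged exons on log scales, with 1 point per gene and a line of equal levels. *Mat1a* is the highest point in both groups and lies well above the line (1718 against 3864 CPM per kb), while *Bcat2* and *Mccc1* are the lowest.

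The mRNA of 5 members was higher and that of 2 was lower in the ISOGK mice than in the vehicle mice. The genes that rose were *Mat1a*, *Asl*, *Aass*, *Ahcy* and *Arg1*, and those that fell were *Mccc1* and *Aldh4a1*, by the quasi-likelihood test of edgeR at a Benjamini-Hochberg adjusted p under 0.05 over all tested genes. Of all 12307 genes, 4.11% were higher and 3.44% were lower. At the added limit of an absolute log2 fold change over 1, 1 member (*Mat1a*) passed, where 1.63% of all genes did. The median log2 fold change of the 43 members was 0.088, against 0.0018 over all tested genes, with 26 members above 0 and 17 below. Under scaling by library size alone the median of all tested genes shifted to -0.13, 7 members crossed to below 0 (*Nags*, *Bckdha*, *Bckdhb*, *Amt*, *Gnmt*, *Cbs* and *Got1*), and 3 members were called higher and 4 lower, against 262 and 804 of all genes. The values of the groups did not overlap for 9 members, 7 of them higher and 2 lower in the ISOGK mice, where 15.3% of all genes showed no overlap.

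Of the 36 members that did not pass the test, 32 had a 95% interval of the log2 fold change that lay within -1 to 1. Their intervals reached from -0.81 (*Afmid*) to 2.08 (*Csad*). A miss of the threshold does not show that such a gene was unchanged.

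**Figure D2:**
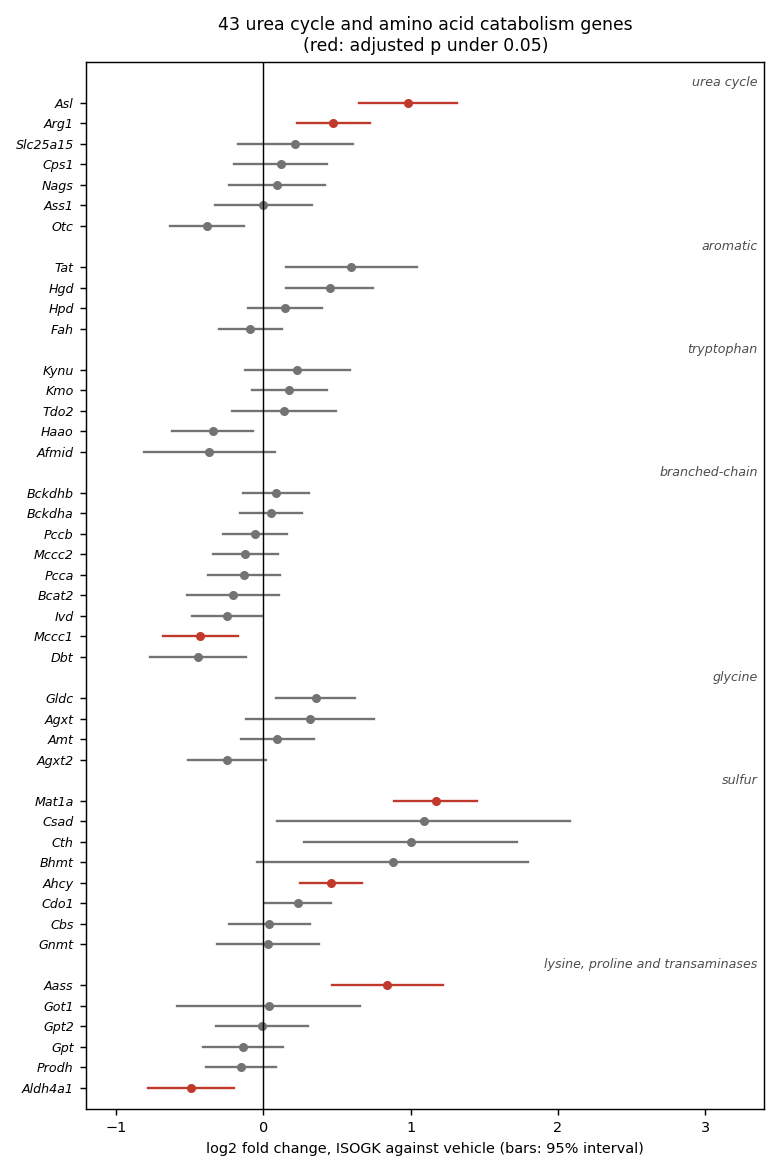
Log2 fold change of each of the 43 members in ISOGK against vehicle mice (points) with the 95% interval (bars), by branch, from edgeR. Red marks the 7 genes with an adjusted p under 0.05, of which 5 lie to the right of 0 and 2 to the left, and the 8 sulfur amino acid genes lie to the right of 0, although *Cbs* and *Gnmt* fall below it under library size alone.

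The sulfur amino acid branch held the largest change. *Mat1a* encodes the liver form of methionine adenosyltransferase (chr14:41105035-41124412, GRCm38, plus strand). Its level was 6605, 6235, 4929 and 6063 CPM in vehicle mice 1 to 4 and 10810, 14460, 13860 and 14490 CPM in ISOGK mice 1 to 4. The lowest ISOGK mouse lay far above the highest vehicle mouse. The log2 fold change was 1.17 ± 0.13 (SE, n = 4 per group), a 2.25-fold rise (edgeR adjusted p = 0.000726). *Mat1a* took between 0.537% and 0.672% of all counts in the vehicle mice and between 1.05% and 1.40% in the ISOGK mice.

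*Ahcy*, which hydrolyses S-adenosylhomocysteine after the methyl group has been handed on, also rose. It was at 2693, 2971, 2796 and 2879 CPM in the vehicle mice and at 3818, 4371, 3734 and 3666 CPM in the ISOGK mice. The groups did not overlap, and the coefficient of variation of the vehicle mice, 4.19%, was the smallest of any member. The log2 fold change was 0.46 ± 0.10 (SE, adjusted p = 0.0152), and the adjusted p was 0.0672 when scaled by library size alone and 0.0531 without ISOGK mouse 2.

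The other 6 sulfur genes had log2 fold changes above 0 without passing the test. *Bhmt*, which remethylates homocysteine with betaine, varied widely, at 5089, 5032, 1549 and 2779 CPM in the vehicle mice and 6019, 8465, 7796 and 4280 CPM in the ISOGK mice. ISOGK mouse 4 lay below vehicle mice 1 and 2, and the log2 fold change of 0.88 ± 0.40 had an adjusted p of 0.225 (edgeR). *Cth*, which releases cysteine from cystathionine, was at 372.7, 438, 244.7 and 287.4 CPM in the vehicle mice and 564.6, 1140, 546.1 and 435.6 CPM in the ISOGK mice. The groups touched only through ISOGK mouse 4 and vehicle mouse 2, and the log2 fold change of 1.00 ± 0.32 had an adjusted p of 0.097.

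*Csad*, a step on the way to taurine, split the vehicle group. Vehicle mice 1 and 2 had 35.3 and 33.2 CPM, vehicle mice 3 and 4 had 84.3 and 111.9 CPM, and the ISOGK mice had between 110.1 and 180.1 CPM (log2 fold change 1.09 ± 0.42, edgeR adjusted p = 0.173). *Cdo1*, the dioxygenase that commits cysteine to breakdown, did not overlap between the groups, with 1358 to 1701 CPM in the vehicle mice and 1729 to 1987 CPM in the ISOGK mice, at a log2 fold change of 0.24 (adjusted p = 0.189). *Cbs* and *Gnmt* had log2 fold changes of 0.04 and 0.03, and both were below 0 when scaled by library size alone, at -0.09 and -0.10.

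Within the urea cycle, the enzymes on either side of arginine rose and the others did not pass the test. *Asl* (chr5:130011258-130029247, GRCm38, minus strand), which splits argininosuccinate into arginine and fumarate, was at 519.4, 481.9, 411.9 and 480.8 CPM in the vehicle mice. In the ISOGK mice it was at 721.9, 1245, 925.9 and 848.7 CPM, each above every vehicle mouse. The log2 fold change was 0.98 ± 0.15 (SE, edgeR adjusted p = 0.00336). *Arg1*, the arginase that releases urea, was at 1335, 1415, 1188 and 1341 CPM in the vehicle mice and 1505, 2012, 1832 and 1992 CPM in the ISOGK mice, again without overlap. Its log2 fold change was 0.48 ± 0.11 (adjusted p = 0.028). That call was lost in 6 of 16 alternative settings, with an adjusted p of 0.067, 0.0648, 0.0875 and 0.066 without vehicle mouse 1, 2, 3 and 4, 0.0816 without ISOGK mouse 2 and 0.0672 under library size alone.

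*Otc*, the mitochondrial step that makes citrulline, had its lowest values in the ISOGK mice. The vehicle mice had 341.4, 339.4, 271.3 and 274.5 CPM and the ISOGK mice 269.9, 236.9, 220.7 and 214.9 CPM so that vehicle mouse 3 and ISOGK mouse 1 were nearly level. The log2 fold change was -0.38 ± 0.12 (edgeR adjusted p = 0.0679), and the adjusted p was 0.0249 with DESeq2, 0.0234 under library size alone and 0.0437 without ISOGK mouse 1. In 12 of 16 alternative settings the adjusted p of *Otc* was at or over 0.05.

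*Cps1*, the entry of ammonia into the cycle and the most abundant urea cycle gene by counts, was at 4834 to 5723 CPM in the vehicle mice and 4415 to 6917 CPM in the ISOGK mice (log2 fold change 0.12, 95% interval -0.20 to 0.44). *Ass1*, which joins citrulline to aspartate just before *Asl*, had means of 2766 and 2764 CPM (95% interval -0.33 to 0.33). *Nags*, which makes the activator of *Cps1*, and *Slc25a15*, the ornithine carrier of mitochondria, had log2 fold changes of 0.09 and 0.22. An antisense gene covers 15.6% of the exons of *Nags*, and the use of strand in counting was not stated.

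No gene of the aromatic branch passed the test. *Hgd*, which opens the ring of homogentisate, had the smallest p of the branch. It was at 537.7, 524, 436.5 and 501 CPM in the vehicle mice and 631.5, 881.9, 640.6 and 576.8 CPM in the ISOGK mice, which did not overlap (log2 fold change 0.45 ± 0.13, edgeR adjusted p = 0.0648). The adjusted p was 0.0244 with DESeq2 and 0.0412 without ISOGK mouse 4. In the other 14 of 16 alternative settings it was at or over 0.05. *Tat*, the transaminase that starts tyrosine breakdown, was at 2156, 1074, 1296 and 1262 CPM in the vehicle mice and 2218, 1868, 2602 and 2067 CPM in the ISOGK mice. Vehicle mouse 1 alone reached the level of the ISOGK mice. With it the log2 fold change was 0.60 ± 0.20 (edgeR adjusted p = 0.0997), and without it 0.85 (adjusted p = 0.00803). Leaving out the highest vehicle mouse widens the difference by construction, so the second value is no separate evidence of a rise. In 13 of 16 alternative settings the adjusted p of *Tat* was at or over 0.05. *Hpd*, which makes homogentisate, and *Fah*, the last step, had log2 fold changes of 0.15 and -0.09.

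The 5 genes of the tryptophan branch also stayed on the other side of the threshold. *Haao*, which makes the precursor of quinolinate, had the smallest p. It was at 226.1, 275.6, 215.7 and 273.8 CPM in the vehicle mice and 200.5, 216.9, 156.5 and 206.9 CPM in the ISOGK mice. The groups overlapped only through ISOGK mouse 2 and vehicle mouse 3, and the log2 fold change was -0.34 ± 0.13 (edgeR adjusted p = 0.117, and 0.0284 under library size alone). In the other 15 of 16 alternative settings the adjusted p of *Haao* was at or over 0.05. *Tdo2*, the first and rate-limiting step of the pathway in liver, was at 1344 to 1997 CPM in the vehicle mice and 1346 to 2123 CPM in the ISOGK mice (log2 fold change 0.14). *Kmo* and *Kynu* had log2 fold changes of 0.18 and 0.23. *Afmid* had -0.37 ± 0.20 (adjusted p = 0.295), and the reads of *Afmid* may be shared, since an annotated gene on the same strand covers 44.2% of its exons.

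In the branched-chain branch 7 of 9 genes had log2 fold changes below 0, and 1 passed the test. *Mccc1*, a subunit of the leucine enzyme methylcrotonyl-CoA carboxylase, was at 51.2, 46.9, 36.8 and 42.6 CPM in the vehicle mice and 32.3, 35.5, 35.7 and 28.6 CPM in the ISOGK mice. The groups did not overlap, although vehicle mouse 3 and ISOGK mouse 3 were nearly level. Its log2 fold change was -0.43 ± 0.12 (edgeR adjusted p = 0.0461). The call was lost with limma-voom (0.0566) and without the robust option (0.0505), and the adjusted p was 0.129, 0.132 and 0.0803 without vehicle mouse 1, 2 and 4 and 0.0789, 0.0741 and 0.0973 without ISOGK mouse 1, 2 and 4.

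*Mccc2*, the partner subunit, had a log2 fold change of -0.12 with a 95% interval of -0.34 to 0.10. *Dbt*, the core of the branched-chain ketoacid dehydrogenase, was at 50.2 to 71.0 CPM in the vehicle mice and 35.2 to 56.2 CPM in the ISOGK mice. Its log2 fold change was -0.44 ± 0.15 (edgeR adjusted p = 0.0952, and 0.042 without ISOGK mouse 3). In the other 15 of 16 alternative settings the adjusted p of *Dbt* was at or over 0.05. The other subunits of that dehydrogenase complex, *Bckdha* and *Bckdhb*, had log2 fold changes of 0.05 and 0.09, and both were below 0 under library size alone (-0.08 and -0.04). For *Bckdha*, 61.7% of the exon bases lie opposite *B3gnt8*, and that gene had between 9 and 23 counts per library. To which gene reads from the shared bases were assigned is not known. *Ivd*, the leucine dehydrogenase, had -0.25 ± 0.11 (adjusted p = 0.189), and the propionyl-CoA carboxylase subunits *Pcca* and *Pccb* had -0.13 and -0.06. *Bcat2* was at 9.63, 12.0, 10.6 and 13.9 CPM in vehicle mice 1 to 4 and at 8.75 to 11.7 CPM in the ISOGK mice. Its log2 fold change moved from -0.21 to -0.11 without vehicle mouse 4, the library with skeletal muscle mRNA. Any part of muscle mRNA in the level of *Bcat2* was not tested.

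The glycine branch had no call. *Gldc*, the decarboxylase of the glycine cleavage system, had the smallest p, with 169.6, 168.6, 141.7 and 181.4 CPM in the vehicle mice and 178.6, 239.9, 239.7 and 188.1 CPM in the ISOGK mice. Only ISOGK mouse 1 fell within the vehicle range (log2 fold change 0.36 ± 0.12, edgeR adjusted p = 0.103). *Amt*, of the same system, had 0.10, and -0.03 under library size alone. *Agxt* and *Agxt2*, transaminases that act on glyoxylate, had 0.32 and -0.24. The value for *Agxt* came largely from ISOGK mouse 2, at 396.3 CPM, while the other ISOGK mice had 217.5 to 234.5 CPM.

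Of the remaining enzymes, 1 rose and 1 fell. *Aass*, which carries out the first steps of lysine breakdown, was at 599.2, 527.3, 344.7 and 469.1 CPM in the vehicle mice and 681.3, 1044, 898.6 and 852.9 CPM in the ISOGK mice. No vehicle mouse reached the lowest ISOGK mouse, and the log2 fold change was 0.84 ± 0.17 (edgeR adjusted p = 0.0143). *Aldh4a1*, which finishes proline breakdown in mitochondria, was at 268, 298.1, 253 and 300 CPM in the vehicle mice and 198.4, 257.3, 171.8 and 168.7 CPM in the ISOGK mice. ISOGK mouse 2 lay just above the lowest vehicle mouse, and the log2 fold change was -0.49 ± 0.14 (adjusted p = 0.047). That call was lost without the robust option (0.0549), and the adjusted p was 0.0903, 0.134, 0.0713 and 0.108 without vehicle mouse 1, 2, 3 and 4 and 0.0764, 0.0737 and 0.0971 without ISOGK mouse 1, 3 and 4. A gene annotated on the same strand covers 32.5% of the exons of *Aldh4a1* and had at most 2 counts in any library. How reads from those shared exons were assigned is not known.

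*Prodh*, the first step of proline breakdown, had a log2 fold change of -0.15. The transaminases *Got1*, *Gpt* and *Gpt2* had 0.04, -0.14 and -0.01, with 95% intervals of -0.58 to 0.65, -0.41 to 0.13 and -0.32 to 0.31. *Got1* varied most, from 281 to 700.5 CPM within the ISOGK group.

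**Figure D3:**
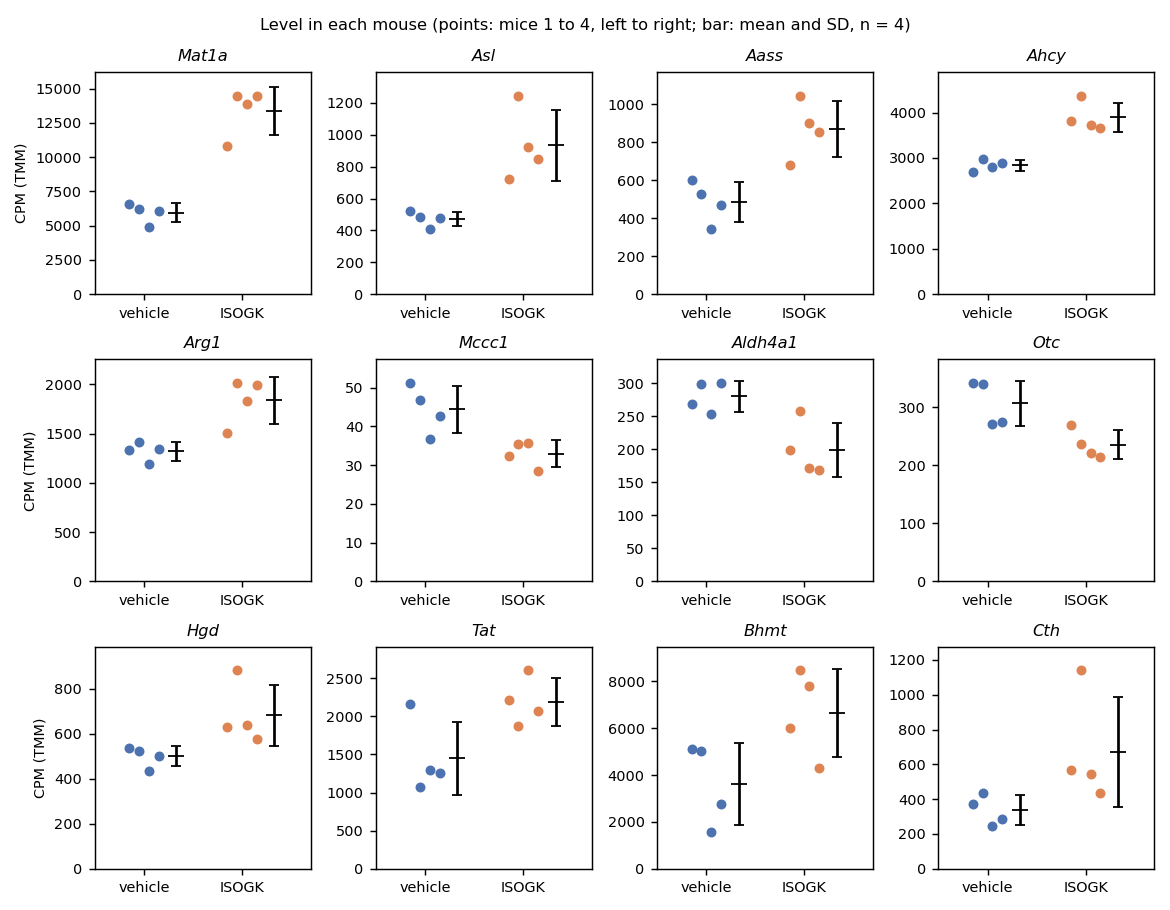
CPM (TMM-scaled) in each mouse for the 7 members that passed the test and for *Otc*, *Hgd*, *Tat*, *Bhmt* and *Cth*, with points in mouse order 1 to 4 and bars for the mean and SD (n = 4), on axes that start at 0. *Mat1a*, *Asl*, *Aass*, *Ahcy* and *Arg1* show no overlap between the groups, while vehicle mouse 1 of *Tat* and ISOGK mouse 4 of *Bhmt* lie within the range of the other group.

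The members together held more of the scaled counts in the ISOGK mice, but by share of the raw counts the groups nearly met. They summed to 40680, 40100, 30070 and 35930 CPM in the vehicle mice and to 46740, 59400, 54680 and 47090 CPM in the ISOGK mice, a ratio of means of 1.42. Under library size alone the ratio was 1.30, and the lowest ISOGK mouse (mouse 4, 41560 CPM) was nearly level with the highest vehicle mouse (mouse 2, 41440 CPM), at 4.16% and 4.14% of all counts. *Mat1a* made up 16.3% ± 0.55 (SD, n = 4) of the sum in the vehicle mice and 25.9% ± 3.4 in the ISOGK mice. Without it the ratio was 1.25 and the groups overlapped, with vehicle mouse 1 at 34080 and ISOGK mouse 4 at 32600 CPM. These sums are given as a description, with no test.

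By branch, the sulfur sum had the highest ratio of means, 1.78, with 12190 to 18000 CPM in the vehicle mice and 24440 to 32230 CPM in the ISOGK mice. Without *Mat1a* and *Bhmt* the ratio was 1.29, with means of 6239 CPM in the vehicle mice and 8030 CPM in the ISOGK mice. That sum still holds *Ahcy*, which passed the test and had means of 2835 and 3897 CPM. The aromatic sum had a ratio of 1.24, glycine 1.16, the lysine, proline and transaminase group 1.15 and the urea cycle 1.13. The tryptophan sum stood at 1.07, and at 0.983 under library size alone, and the branched-chain sum at 0.917, the only branch below 1 with the main scaling. The groups overlapped in the sums of the other 6 branches.

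**Figure D4:**
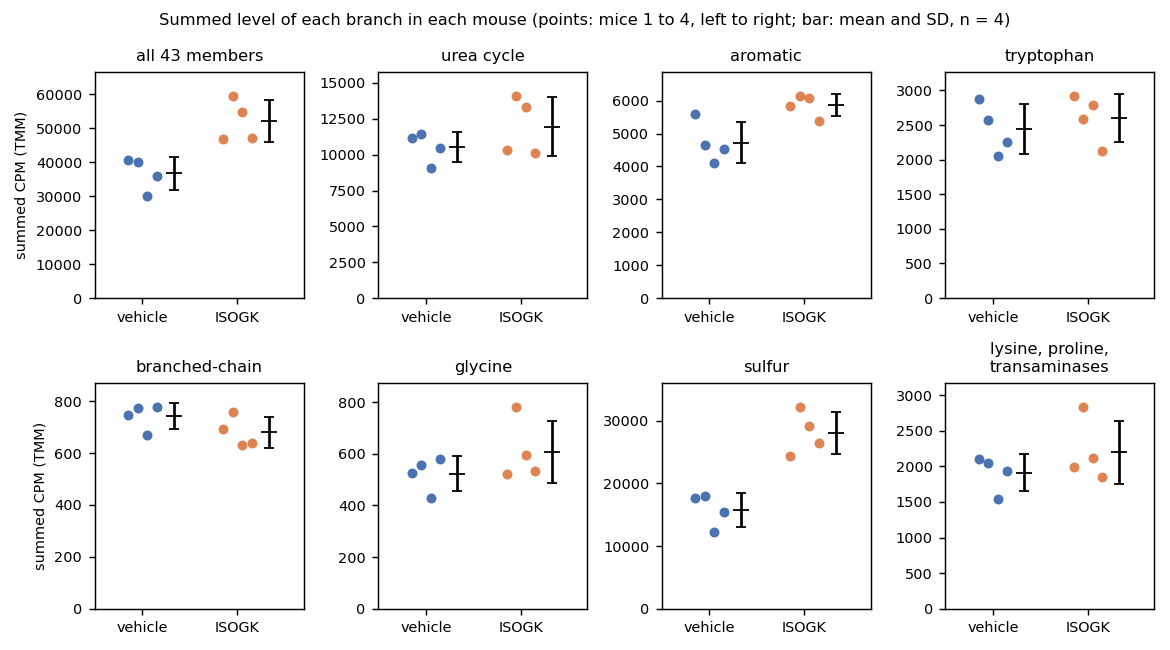
Summed CPM (TMM-scaled) of all 43 members and of each branch in each mouse, with points in mouse order 1 to 4 and bars for the mean and SD (n = 4), on axes that start at 0. The sulfur branch separates the groups, at 12190 to 18000 CPM against 24440 to 32230 CPM, and vehicle mouse 3 is the lowest vehicle mouse in all 8 panels.

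The same mice stood at the ends of their group for many members. Vehicle mouse 3 had the lowest value of its group for 34 of 43 members (79.1%), against 23.2% of all tested genes, and the highest for 0. ISOGK mouse 2 had the highest value of its group for 32 members (74.4%), against 22% of all tested genes, and ISOGK mouse 4 the lowest for 22 (51.2%), against 27.4%. Under library size alone the first of these counts was 29 and the second 30, against 13.6% and 22.3% of all genes. The third, for ISOGK mouse 4, was then 29 (67.4%), against 42.6% of all genes, so that its low place was widespread under that scaling. The sum of the hepatocyte markers was lowest in vehicle mouse 3, at 173900 CPM, where vehicle mice 1, 2 and 4 had 177900 to 188300 CPM. Most of that sum was *Alb*, at 119300 CPM in vehicle mouse 3. *Alb*, *Fgb* and *Serpina1c* were lowest of the vehicle group in that mouse, while *Apoa1*, *Ttr*, *Tf*, *Apob* and *Cyp2e1* were not. In ISOGK mouse 2 the sum was 174400 CPM, within the 160000 to 210100 CPM of the other ISOGK mice, and the sum was highest in ISOGK mouse 4. The part of these levels in the order of the mice was not tested.

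Promoter sequence was read for the members from RefSeq windows of GRCm38.p6, which were found for 34 of the 43 members and none for *Cps1*, *Asl*, *Arg1*, *Kynu*, *Dbt*, *Mat1a*, *Cth*, *Cdo1* and *Gpt*. The 250 bases before the start site are printed for *Aass* and *Ahcy*, the members that rose and have a window, because *Aass* is among the 3 members called in every setting and *Ahcy* had the tightest vehicle group. They lie at chr6:23132987-23133236 and chr2:155074498-155074747, both on the minus strand, and capitals mark each CCAAT box, a short element of many promoters, as CCAAT or, on the other strand, ATTGG.
Aass: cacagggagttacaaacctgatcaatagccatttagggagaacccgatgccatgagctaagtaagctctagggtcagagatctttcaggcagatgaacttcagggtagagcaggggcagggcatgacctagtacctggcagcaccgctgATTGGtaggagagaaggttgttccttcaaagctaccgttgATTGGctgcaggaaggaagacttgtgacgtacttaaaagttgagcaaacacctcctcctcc
Ahcy: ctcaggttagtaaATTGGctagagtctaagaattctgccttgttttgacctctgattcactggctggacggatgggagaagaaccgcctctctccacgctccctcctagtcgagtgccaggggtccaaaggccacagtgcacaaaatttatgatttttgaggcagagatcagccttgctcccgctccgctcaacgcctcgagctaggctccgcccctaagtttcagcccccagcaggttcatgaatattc

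The window of *Aass* holds the box at 101 and 61 bases before the start site, and that of *Ahcy* holds 1, at 237 bases. CCAAT, searched on both strands after these sequences had been seen, was in 19 of 40 member windows (47.5%) and in 33.8% of all 32851 windows of that length. In the full windows, which reach 50 bases into the gene, the C/EBP palindrome TTGCGCAA was in 0 of the 40 member windows (0.18% of all windows) and the cyclic AMP response element TGACGTCA in 0 (1.79%). The C/EBP-ATF element TGATGCAA was in 1, that of *Got1* (0.89%), which did not pass the test. Each was searched on both strands, and none was tested.

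Genes around these pathways were read from 105 further symbols, of which 100 were tested. Of these 100, 6 were higher and 12 were lower, where 4.11% of all tested genes were higher and 3.44% were lower. The median log2 fold change of the 100 was -0.02. Under library size alone 2 of them were higher and 21 lower, against 262 and 804 of all 12307 genes. The genes called were 1 higher and 1 lower of 9 beside the urea cycle, 0 of 5 beside the aromatic branch, 1 lower of 7 for tryptophan, 3 lower of 14 for branched-chain amino acids, 1 higher of 14 for glycine, serine and threonine, 1 higher and 1 lower of 13 for sulfur, 1 higher and 1 lower of 11 for lysine, proline and histidine, 1 higher of 8 for amino acid synthesis, 1 higher and 4 lower of 11 transporters and 1 lower of 12 transcription regulators. Of these 18 calls, 7 were kept under all 16 alternative settings, namely *Asns*, *Sdsl*, *Slc25a44*, *Ido2*, *Mmab*, *Slc36a1* and *Sqor*.

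The largest rise was that of *Asns*, which makes asparagine, from 1.46, 1.07, 1.21 and 0.491 CPM in the vehicle mice to 10.1, 13.1, 3.51 and 19.3 CPM in the ISOGK mice. It was low in every vehicle mouse (log2 fold change 3.45 ± 0.54, edgeR adjusted p = 0.00813). *Sdsl*, a relative of serine dehydratase, rose from 7.63 to 9.49 CPM in the vehicle mice to 19.2 to 40.1 CPM in the ISOGK mice (1.69 ± 0.20, adjusted p = 0.00117).

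Next to the methionine cycle, *Bhmt2*, a neighbour and paralog of *Bhmt*, rose (log2 fold change 0.45 ± 0.12, edgeR adjusted p = 0.0387), and *Sqor*, which oxidises hydrogen sulfide, fell (-0.66 ± 0.12, adjusted p = 0.00785). The call for *Bhmt2* was lost under 7 of 16 settings, 5 of which left out vehicle mouse 2, 3 or 4 or ISOGK mouse 2 or 3, with an adjusted p of up to 0.11.

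Where 3.44% of all tested genes fell and 4.11% rose, 3 of 14 tested genes around the branched-chain enzymes fell and 0 rose. They were *Slc25a44*, the mitochondrial carrier of these amino acids (-0.61 ± 0.08, edgeR adjusted p = 0.00178), *Mmab*, which prepares the cobalamin cofactor for the end of the propionate path (-0.78 ± 0.13, adjusted p = 0.0057), and *Hibadh*, a step of valine breakdown (-0.34 ± 0.09, adjusted p = 0.0393). Beside the tryptophan enzymes *Ido2* fell from 49.4 to 52.7 CPM in the vehicle mice to 20.4 to 34.5 CPM in the ISOGK mice (-0.89 ± 0.14, adjusted p = 0.00381).

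Beside the urea cycle *Oat*, which feeds ornithine to glutamate, rose (0.57 ± 0.16, edgeR adjusted p = 0.0461), and *Glud1*, which frees ammonia from glutamate, fell (-0.35 ± 0.10, adjusted p = 0.0452). In histidine breakdown *Hal*, the first step, rose (0.58 ± 0.14, adjusted p = 0.0305) and *Uroc1*, the second, fell (-0.40 ± 0.11, adjusted p = 0.0469). Among the transporters *Slc25a22*, a mitochondrial glutamate carrier, was higher (0.61 ± 0.14, adjusted p = 0.0281), and *Slc36a1* (-0.73, adjusted p = 0.00592), *Slc6a13* (-0.41, adjusted p = 0.0333) and the glutamine transporter *Slc38a3* (-0.47, adjusted p = 0.0333) were among those lower. *Nr3c1*, the glucocorticoid receptor, was lower by 0.41 on the log2 scale (-0.41 ± 0.11, adjusted p = 0.0376). The calls for *Oat*, *Glud1*, *Hal*, *Uroc1*, *Hibadh*, *Slc25a22*, *Slc6a13*, *Slc38a3* and *Nr3c1* were each lost in at least 5 of 16 settings, and each of the 9 was lost without ISOGK mouse 2 and without vehicle mouse 3. The adjusted p of these genes reached 0.147 at most. The call for *Slc43a1*, the transporter with the largest fall (log2 fold change -1.06 ± 0.28, adjusted p = 0.0489), was lost in 9 of 16 settings, 7 of which left out a vehicle mouse or ISOGK mouse 2, 3 or 4, with an adjusted p of up to 0.133 and a log2 fold change of -1.46 to -0.89.

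**Figure D5:**
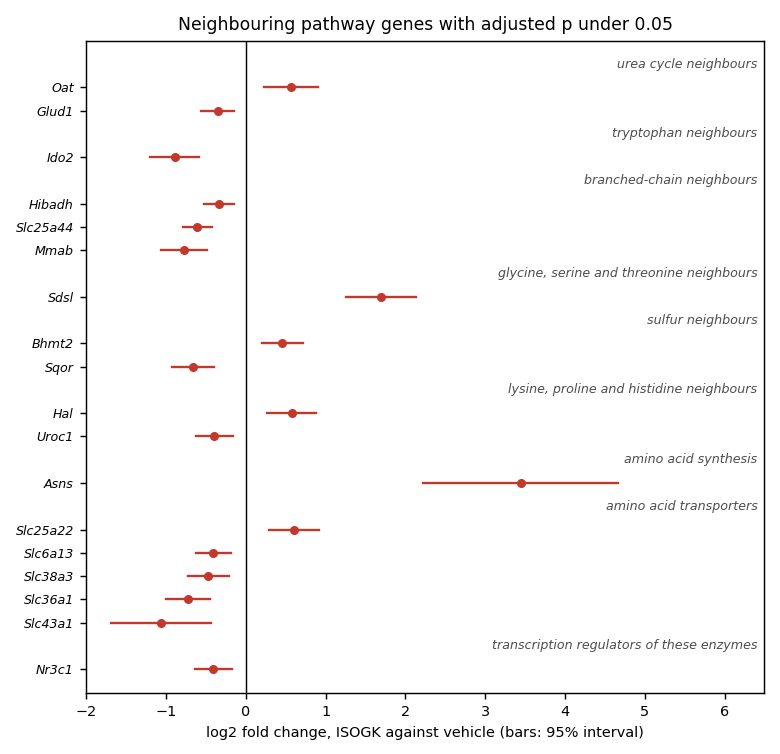
Log2 fold change (points) with the 95% interval (bars) of the 18 neighbouring genes with an adjusted p under 0.05, from edgeR, grouped by pathway. *Asns* lies farthest to the right, at 3.45, and *Slc43a1*, an amino acid transporter, farthest to the left, at -1.06 (adjusted p = 0.0489, a call lost in 9 of 16 settings).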

How the data were processed

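Liver mRNA of 4 vehicle and 4 ISOGK mice was sequenced, with groups and replicate numbers taken from the deposited labels. The authors aligned reads with HISAT2 (version 2.0.5 in the submitters' processing notes, genome mm10) and counted genes with StringTie (1.3.3b). The values deposited by the authors are whole-number raw counts per gene symbol, without normalization. The use of strand and the annotation release are not given in the sources used here.

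Genes were filtered with filterByExpr (minimum count 10, minimum total 15), scaled with TMM and tested in edgeR 4.0.16 (R 4.3.3) by the robust quasi-likelihood test, with Benjamini-Hochberg adjustment over 12307 genes. CPM carry the TMM factors, 0.883 to 1.09. Intervals are 95% confidence intervals of the log2 fold change and do not give the range of single mice. They rest on the spread between these mice, with the dispersion estimates shared in part across genes. The SE of a log2 fold change was worked back as its absolute value over the square root of the F statistic of the test. Exon lengths came from GENCODE M21 (GRCm38), with the exons of all annotated transcripts of a gene merged. The scripts were tested on simulated data. Alternatives were DESeq2 1.42.0, limma-voom (limma 3.58.1), DESeq2's size factors, library size alone, other filters, a fit that was not robust, a block for the replicate number and each mouse left out.

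The members and lists were chosen with earlier results of these data known. Members with an adjusted p under 0.05 and the member with the smallest p of each branch were given in every mouse, as were *Otc*, *Tat*, *Bhmt* and *Cth*, chosen after their values were seen. From each list of neighbouring genes up to 4 with an adjusted p under 0.05 were named, smallest p first. *Slc43a1* was named beyond this rule, as the transporter with the largest fall. One further gene of these lists is not reported here and was left out of their counts.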

Additional observations from a re-analysis of the deposited data

Results flagged for a closer look

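Within the groups of 4 mice, single values were compared with the rest of their group by Dixon's ratio, whose critical value for 4 samples is 0.829. Of 86 groups examined, 4.3 would be expected past it by chance, and 2 passed. *Agxt* was at 396.3 CPM in ISOGK mouse 2, while the other ISOGK mice had 217.5 to 234.5 CPM (ratio 0.905). *Cdo1* was at 1358 CPM in vehicle mouse 3, while the other vehicle mice had 1657 to 1701 CPM (ratio 0.87). These are the same mice that stood at the top and the bottom of their group for most members.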

How the results depend on the processing

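Of 688 recomputed member values, 621 kept their direction and their side of the threshold, 25 lost a call, 12 gained one and 30 changed sign. All 112 values of the 7 called members kept their direction, and *Mat1a*, *Asl* and *Aass* were called under all 16 alternatives, with adjusted p up to 0.00378, 0.0167 and 0.044. Counts of members called higher and lower (main 5 and 2) were 3 and 4 under library size alone, with 1 lower by limma-voom and 0 lower without the robust option. All genes (506 and 423) gave 765 and 670 with DESeq2 and 262 and 804 under library size alone, and the neighbouring genes (6 and 12) 2 and 21. With 1 mouse left out, members ranged from 3 to 6 higher and 0 to 2 lower, all genes from 219 to 712 and from 160 to 523, and neighbours from 2 to 9 and from 5 to 11. The low end of members called higher, 3, came without ISOGK mouse 2. No member was lower without vehicle mouse 1, 2 or 4 or ISOGK mouse 4, and 1 was without vehicle mouse 3 or ISOGK mouse 1 or 2.

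Deviations from the group mean had correlations of -0.0144 to 0.0849 between mice with the same number. Pairs with different numbers had -0.207 to 0.219. These values cannot show whether mice shared a litter, a cage or a day of processing, and the main test used no pairing. With the replicate block 7 members were higher and 2 lower, *Otc*, *Tat* and *Cth* (adjusted p = 0.0485, 0.0405 and 0.00888) joining 6 of the 7 and *Mccc1* lost (0.0606), all genes gave 411 and 416, and neighbours 5 and 7.

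Signs changed in members that did not pass the test. Under library size alone the log2 fold change was -0.0413 for *Nags*, -0.0813 for *Bckdha*, -0.0415 for *Bckdhb*, -0.0314 for *Amt*, -0.10 for *Gnmt*, -0.0918 for *Cbs* and -0.0792 for *Got1*. *Ass1* was 0.0026 with limma-voom and 0.0015 with the block, and *Got1* was -0.0197 and -0.0183. With 1 mouse left out, the log2 fold change ranged from -0.114 to 0.0857 for *Ass1*, -0.0923 to 0.173 for *Nags*, -0.111 to 0.0078 for *Pccb*, -0.0713 to 0.135 for *Gnmt*, -0.0203 to 0.139 for *Cbs*, -0.276 to 0.201 for *Got1* and -0.129 to 0.0994 for *Gpt2*. The cause was not tested.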
